A study of Mus musculus with 12 samples.

Results

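The genes described here are 33 members of the cholesterol and fatty acid synthesis programme of mouse cells, taken by gene symbol from a list and found in the deposited count table, 33 of 22298 named genes. They were grouped by role into 5 regulators of SREBP (Srebf1, Srebf2, Scap, Insig1 and Insig2), 7 mevalonate enzymes, 10 squalene and sterol enzymes, 1 sterol carrier (Stard4), 5 genes of acyl chain supply and synthesis, and 5 genes of acyl chain desaturation and elongation. The 17 mevalonate, squalene and sterol enzymes are called the sterol branch, and the 10 acyl chain genes the fatty acid branch. All 33 members passed the low-count filter and were tested.

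RNA was sequenced from 4T1 cells, a triple-negative mammary carcinoma line of BALB/c mice. Populations had received a guide RNA that targets Cop1 (Cop1_sgRNA1 or Cop1_sgRNA2) or the control guide Rosa26, a site commonly cut as a neutral control. Each of these 3 populations was measured with IFNγ, given at 20 ng/ml for 24 h, and with vehicle, which gives 6 groups with 2 libraries per group and 12 libraries in all. The comparison asks how loss of Cop1, the gene of a ubiquitin ligase, alters transcription at rest and under IFNγ. Whether a population is a clone or a pool, and whether the libraries of a group came from separate cultures, is not given in the sources used here, so that p-values measure the spread between these libraries, which may be technical. Each Cop1 guide is 1 population and Rosa26 is 1 population, so that Cop1 loss and other differences between these populations cannot be told apart.

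SREBP-2, encoded by Srebf2, drives most genes of cholesterol synthesis, and SREBP-1, encoded by Srebf1, drives most genes of fatty acid synthesis. Both are made as membrane proteins of the endoplasmic reticulum, where SCAP escorts them to the Golgi for cleavage when sterols are scarce and INSIG proteins hold SCAP back when sterols are plentiful. Tumour cells use the products for membranes and signalling lipids. In macrophages, interferons are known to lower sterol synthesis. COP1 works with Tribbles adaptor proteins, and in mouse fat tissue that pair is known to tag acetyl-CoA carboxylase, the product of Acaca, for degradation, an effect on protein that RNA counts do not measure.

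The promoters of 4 members are shown because Hmgcs1, Idi1, Fasn and Elovl6 carry results on both branches and differ in the motifs held. They are RefSeq windows of 300 bases on build GRCm38.p6, from 250 bases before the gene start to 50 after it, 5′ to 3′ on the strand of the gene, and come from the reference strain, not from 4T1 DNA. Capitals mark the sterol regulatory element TCACNCCAC or its reverse complement GTGGNGTGA, the E-box CACGTG, and CCAAT or its reverse complement ATTGG.
Hmgcs1, chr13:119690101-119690400, plus strand: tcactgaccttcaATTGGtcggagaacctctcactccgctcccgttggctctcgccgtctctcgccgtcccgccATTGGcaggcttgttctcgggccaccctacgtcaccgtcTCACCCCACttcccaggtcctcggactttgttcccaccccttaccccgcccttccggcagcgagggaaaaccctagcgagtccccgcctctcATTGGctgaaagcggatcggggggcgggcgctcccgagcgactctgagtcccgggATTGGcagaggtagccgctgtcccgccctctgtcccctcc
Idi1, chr13:8885356-8885655, plus strand: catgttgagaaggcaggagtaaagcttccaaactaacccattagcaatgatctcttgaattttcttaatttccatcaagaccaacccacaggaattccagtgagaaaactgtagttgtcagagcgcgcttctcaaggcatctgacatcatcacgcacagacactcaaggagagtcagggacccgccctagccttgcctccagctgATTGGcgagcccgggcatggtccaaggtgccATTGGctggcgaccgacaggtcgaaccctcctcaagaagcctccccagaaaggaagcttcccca
Fasn, chr11:120824498-120824797, minus strand: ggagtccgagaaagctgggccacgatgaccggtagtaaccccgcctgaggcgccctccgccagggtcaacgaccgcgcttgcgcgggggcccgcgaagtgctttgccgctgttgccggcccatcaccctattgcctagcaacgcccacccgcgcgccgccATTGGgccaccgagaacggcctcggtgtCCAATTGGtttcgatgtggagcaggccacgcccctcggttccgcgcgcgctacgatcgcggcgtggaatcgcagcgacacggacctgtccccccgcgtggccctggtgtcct
Elovl6, chr3:129532136-129532435, plus strand: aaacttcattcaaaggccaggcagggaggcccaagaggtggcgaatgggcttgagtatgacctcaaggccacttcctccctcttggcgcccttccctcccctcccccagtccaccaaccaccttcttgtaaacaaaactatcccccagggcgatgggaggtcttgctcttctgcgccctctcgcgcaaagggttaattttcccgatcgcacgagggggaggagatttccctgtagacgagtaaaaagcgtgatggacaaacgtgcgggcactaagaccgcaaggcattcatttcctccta

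The Hmgcs1 window held the sterol regulatory element and CCAAT at 4 places, the Idi1 window CCAAT at 2 places, and the Fasn window CCAAT on both strands, at 3 places. The Elovl6 window held none of these letters. Of the 33 members, 26 had a window. CCAAT lay in 21 of these 26 windows, against 41.1% of the windows of 27025 genes. It lay in 13 of 14 windows of the sterol branch and in 4 of 7 of the fatty acid branch. The E-box lay in 5 member windows (Scap, Insig1, Hsd17b7, Sc5d and Dhcr7), against 8.09% of all genes, and the sterol regulatory element in that of Hmgcs1, against 1.44% of all genes. A match is a run of letters and says nothing about which factor binds there. Only these letter patterns were searched, and only in these windows, so a missing match does not show that an element is absent.

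Libraries held 19378070 to 32609717 counts, and the members held 0.583% to 0.709% of them. Levels are given as CPM, counts scaled to a common library size by the TMM method, and changes as log2 differences with their standard error (SE), positive where the Cop1-guide or IFNγ group is higher. A gene is called where the adjusted p is under 0.05 over all genes tested. The epithelial markers Epcam, Krt8, Krt18, Krt7 and Cdh1 summed to 2789 to 3897 CPM, while Cd3e and Adgre1 of the leukocyte list stood at 0 in all 12 libraries and the adipocyte list summed to 1.19 to 3.22 CPM. Cop1 itself, at chr1:159232320-159347640 on build GRCm38 like all gene positions here, stood with IFNγ at 60.7 and 60.2 CPM with sgRNA1 and 32.3 and 33.6 CPM with sgRNA2, against 80.4 and 83.3 CPM in Rosa26 cells (log2 -0.88 ± 0.050). In vehicle it stood at 59.1 and 63.1 CPM with sgRNA1 and 34.5 and 34.7 CPM with sgRNA2, against 89.7 and 98.2 CPM in Rosa26 cells (log2 -1.03 ± 0.048). Cop1 RNA was lower in all 8 Cop1-guide libraries than in the Rosa26 libraries of the same treatment, and lower with sgRNA2 than with sgRNA1.

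Reads of some members can belong to other genes. Of the 50-base runs in the longest transcript, 52.6% of Acaca's also occur in Gm5182, 45.9% of Acat2's in other genes, chiefly Acat3 and Tcp1, 32.8% of Me1's in Gm7049 and other genes, 30.7% of Fdft1's in Ctsb, which overlaps it on the opposite strand, and Gm6781, and 30.5% of Idi1's, chiefly in Gm13502. The remaining members shared at most 13.6%, and Fdps shares 26.7% of its exon bases with Gm43738 on the same strand. How the counting handled strand and multi-mapping reads was not given in the sources used here, so that the values of these members are uncertain to that extent. Of the 8 members with a called difference of responses, Sqle, Acly and Fasn shared at most 0.05% of such runs with other genes.

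Per kilobase of exon, which compares genes only roughly, the most abundant member in Rosa26 cells in vehicle was Scd2, at 355 CPM per kb. Scd2 encodes a stearoyl-CoA desaturase. Length here counts all annotated exons of a gene merged, such as 17074 bases for Acaca and 10163 for Acss2, not 1 transcript. Acly, the enzyme that makes cytosolic acetyl-CoA from citrate, stood at 98.6 CPM per kb, Fads2 at 82.8, Fasn at 68.7 and Acat2 at 63.5. The lowest values were those of Acaca at 7.91, Acss2 at 2.19 and Fdps at 1.40 CPM per kb. The merged lengths, and the sequence that Acaca and Fdps share with other genes, leave this low rank uncertain as a measure of abundance. The 10 fatty acid genes summed to 3324 to 3479 CPM in Cop1-guide cells and 3241 to 3281 CPM in Rosa26 cells with IFNγ, and to 3571 to 3801 CPM in Cop1-guide cells and 4149 to 4208 CPM in Rosa26 cells in vehicle. The 17 sterol enzymes summed to 1888 to 2021 CPM in Cop1-guide cells and 1769 to 1816 CPM in Rosa26 cells with IFNγ, and to 1835 to 2093 CPM in Cop1-guide cells and 1896 to 1916 CPM in Rosa26 cells in vehicle.

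Under IFNγ, lipid synthesis genes fell in Rosa26 cells in both branches, and fewer falls were called in Cop1-guide cells. In Cop1-guide cells, averaged over the guides, 2 members rose and 10 fell with IFNγ, where calls covered 34.2% of all 11904 genes tested (18.1% higher and 16.1% lower). In Rosa26 cells 1 member rose and 18 fell, where calls covered 32.8% of all 11904 genes tested (16.6% higher and 16.2% lower). The widest of these changes was that of Scd2 in Rosa26 cells (log2 -0.51). In the sterol branch, 1 of 17 enzymes rose and 1 fell in Cop1-guide cells (median log2 0.0029), against 1 risen and 7 fallen in Rosa26 cells (median -0.12). By guide, 1 of 17 rose and 5 fell in sgRNA2 cells (median -0.072), and 3 rose and 1 fell in sgRNA1 cells (median 0.038). Calls covered 25.3% of all genes in sgRNA2 cells and 22.5% in sgRNA1 cells. Of the 7 mevalonate enzymes, 3 fell in sgRNA2 cells (median -0.13), 0 in sgRNA1 cells (median 0.028) and 3 in Rosa26 cells (median -0.13). In the fatty acid branch, 1 of 10 genes rose and 5 fell in Cop1-guide cells (median -0.056), against 0 risen and 9 fallen in Rosa26 cells (median -0.24). The median over all genes tested was -0.0058 in Cop1-guide and -0.0085 in Rosa26 cells. The difference of the responses, Cop1-guide minus Rosa26, was called for 8 of the 33 members, each positive, where calls covered 5.74% of all 11904 genes tested (3.38% higher and 2.36% lower). These were 3 of 17 sterol enzymes (Acat2, Idi1 and Sqle) and 5 of 10 fatty acid genes (Acly, Acaca, Fasn, Scd2 and Elovl6), with medians of 0.10 over the sterol branch and 0.17 over the fatty acid branch. Without Cop1_sgRNA1 vehicle replicate 2 the sterol median was 0.055, and without Cop1_sgRNA2 IFNγ replicate 2 it was 0.053. The branches were not tested against each other.

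With the libraries of each population summed, so that guides take the place of replicates and the lone Rosa26 sample per treatment is assumed to vary like the others, 0 of 33 members and 0 of 12595 genes were called for that difference (edgeR), while 6 members, all positive, and 563 genes had an unadjusted p under 0.05. DESeq2's Wald test on the 12 libraries called 7 members. Summed in the same way, 4 members kept a called IFNγ response in Cop1-guide cells (Insig1, Sc5d, Dhcr7 and Scd2), where calls covered 11.1% of all genes in that fit, and 3 in Rosa26 cells (Acat2, Scd2 and Elovl6), where calls covered 8.93%.

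**Figure D1:**
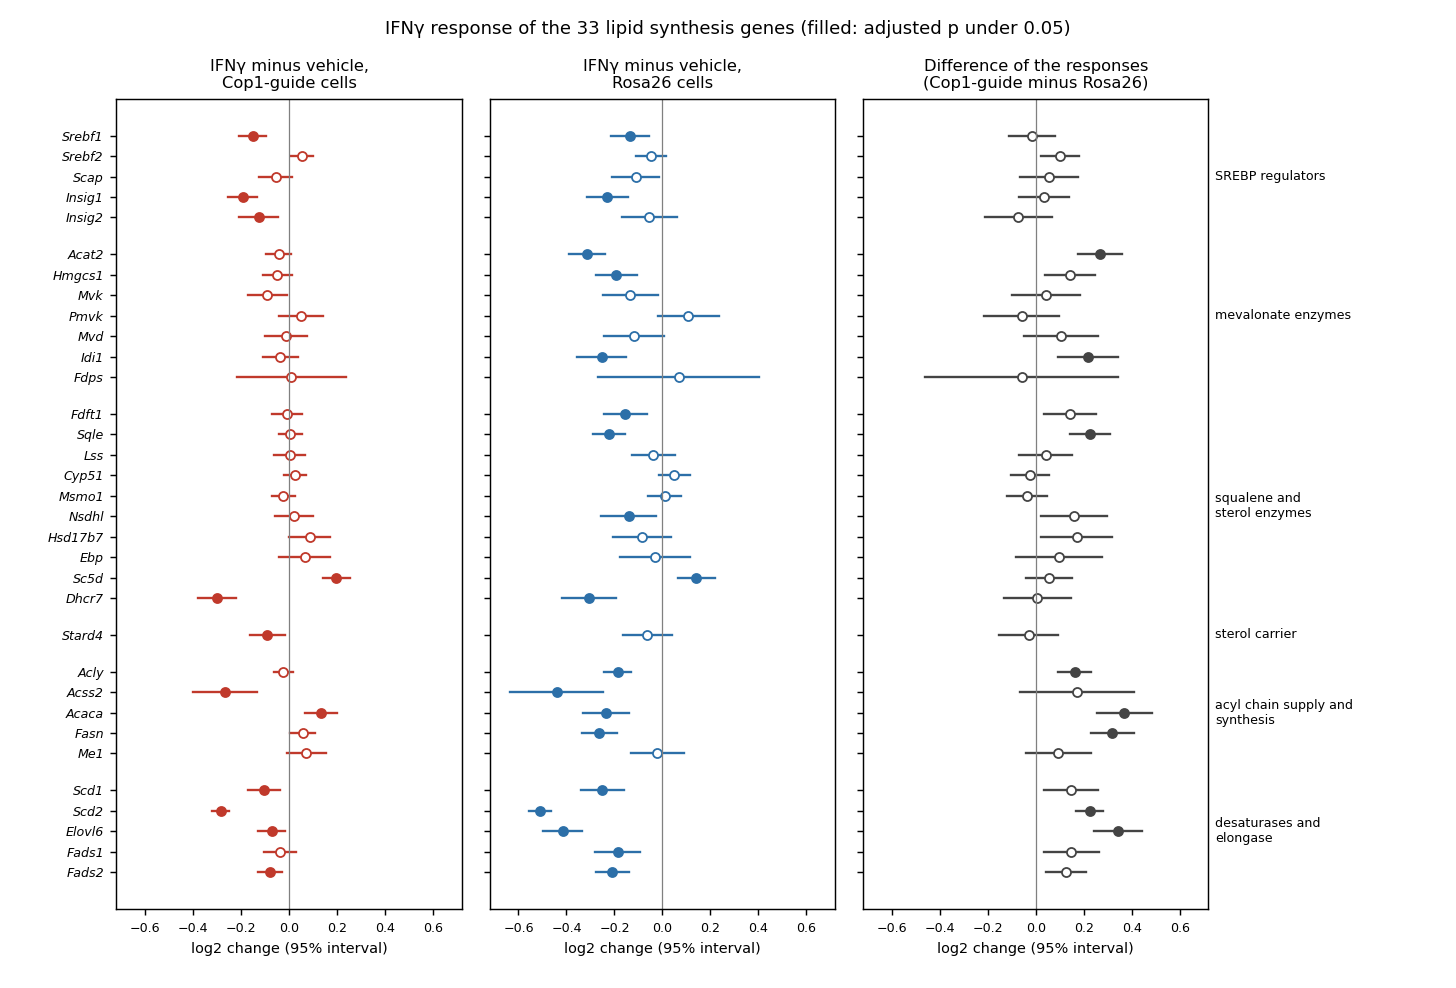
IFNγ response of the 33 members, as the log2 change with its 95% interval (x axes) for each gene (y axis), in Cop1-guide cells (left), in Rosa26 cells (middle) and as the difference of the responses (right). Filled points have an adjusted p under 0.05. In the right panel all 8 filled points lie above 0.

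Acaca, which encodes the acetyl-CoA carboxylase that commits acetyl-CoA to fatty acids (chr11:84129672-84401651), gave the largest difference of responses among the members. Under IFNγ Acaca measured 133 and 136 CPM with sgRNA1 and 142 and 132 CPM with sgRNA2, against 109 and 120.2 CPM in Rosa26 cells. In vehicle it had 125 and 129 CPM with sgRNA1 and 118 and 124 CPM with sgRNA2, against 130.4 and 139.8 CPM in Rosa26 cells. The Cop1-guide libraries with IFNγ lay above those in vehicle, and 1 of the Rosa26 libraries with IFNγ was the lowest of all 12. Acaca rose with IFNγ in Cop1-guide cells (log2 0.13 ± 0.033, adjusted p = 0.00119) and fell in Rosa26 cells (log2 -0.24 ± 0.047, adjusted p = 8.52e-05), a difference of 0.37 ± 0.057 (adjusted p = 1.78e-05). Fasn, the fatty acid synthase (chr11:120805846-120824547), makes palmitate. Fasn had, with IFNγ, 733 and 778 CPM with sgRNA1 and 809.8 and 811 CPM with sgRNA2, against 603 and 651 CPM in Rosa26 cells. Vehicle libraries held 724 and 773 CPM with sgRNA1 and 744 and 769 CPM with sgRNA2, against 742 and 762 CPM in Rosa26 cells. For Fasn both Rosa26 libraries with IFNγ lay below all others. Fasn changed with IFNγ by 0.056 ± 0.025 in Cop1-guide cells (adjusted p = 0.0837) and fell in Rosa26 cells (log2 -0.26 ± 0.035, adjusted p = 1.24e-06), a difference of 0.32 ± 0.043 (adjusted p = 1.83e-05). The response in Cop1-guide cells was called a rise with no count filter (adjusted p = 0.0211) and in a fit of only the groups compared (adjusted p = 0.0476). It was also called without Cop1_sgRNA1 vehicle replicate 2, Cop1_sgRNA1 IFNγ replicate 1 or Rosa26 IFNγ replicate 1 or 2, at adjusted p of 0.0114 to 0.0398.

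Acly supplies the acetyl-CoA used by both branches. With IFNγ the Acly libraries gave 506 and 504 CPM with sgRNA1 and 496 and 489 CPM with sgRNA2, against 461 and 454 CPM in Rosa26 cells. Its vehicle levels were 502 and 518 CPM with sgRNA1 and 501 and 507 CPM with sgRNA2, against 521 and 520.2 CPM in Rosa26 cells. All libraries lay within a narrow range except the Rosa26 pair with IFNγ, which was lowest. Its response was -0.024 ± 0.020 in Cop1-guide cells, without a call, and -0.19 ± 0.028 in Rosa26 cells (adjusted p = 6.52e-07), a difference of 0.16 ± 0.034 (adjusted p = 0.00156). Acss2 makes acetyl-CoA from acetate. With IFNγ, Acss2 stood at 21.1 and 20.7 CPM with sgRNA1 and 17.5 and 20.4 CPM with sgRNA2, against 15.6 and 17.2 CPM in Rosa26 cells. In vehicle Acss2 measured 24.0 and 26.6 CPM with sgRNA1 and 22.0 and 23.5 CPM with sgRNA2, against 22.4 and 22.2 CPM in Rosa26 cells. Acss2 fell with IFNγ in Cop1-guide cells (log2 -0.27 ± 0.066, adjusted p = 0.00114) as in Rosa26 cells (log2 -0.44 ± 0.096, adjusted p = 0.000313), and the difference of 0.17 ± 0.12 was not called (adjusted p = 0.472, 95% interval -0.064 to 0.41). Me1, malic enzyme, supplies NADPH. Under IFNγ Me1 measured 64.3 and 70.3 CPM with sgRNA1 and 65.9 and 66.2 CPM with sgRNA2, against 71.5 and 74.7 CPM in Rosa26 cells. Without IFNγ, Me1 stood at 62.9 and 61.3 CPM with sgRNA1 and 63.5 and 66.0 CPM with sgRNA2, against 76.0 and 72.3 CPM in Rosa26 cells. All Rosa26 libraries exceeded all Cop1-guide libraries. Me1 was lower in Cop1-guide than in Rosa26 cells with IFNγ (log2 -0.13 ± 0.047, adjusted p = 0.0228; lost under DESeq2's Wald test, at an adjusted p of 0.0703, and without Rosa26 IFNγ replicate 2 or Cop1_sgRNA1 IFNγ replicate 1, at adjusted p of 0.12 to 0.232) and in vehicle (log2 -0.23 ± 0.047, adjusted p = 0.000168).

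Elovl6, which lengthens palmitate to stearate (chr3:129532355-129638495), was lowest in Rosa26 cells with IFNγ, like Fasn. Elovl6 had, with IFNγ, 187 and 191 CPM with sgRNA1 and 199 and 193 CPM with sgRNA2, against 152 and 139 CPM in Rosa26 cells. In vehicle its levels were 192 and 203 CPM with sgRNA1 and 212 and 205 CPM with sgRNA2, against 187 and 199.8 CPM in Rosa26 cells. The Rosa26 libraries with IFNγ were below all 10 others. Elovl6 fell by 0.073 ± 0.028 with IFNγ in Cop1-guide cells (adjusted p = 0.0382) and by 0.42 ± 0.040 on the log2 scale in Rosa26 cells (adjusted p = 1.83e-11), a difference of 0.34 ± 0.049 (adjusted p = 3.66e-06). The call in Cop1-guide cells was lost under DESeq2's Wald test, at an adjusted p of 0.0981, and without Cop1_sgRNA1 vehicle replicate 2, Cop1_sgRNA2 vehicle replicate 1, Cop1_sgRNA1 IFNγ replicate 1 or 2 or Cop1_sgRNA2 IFNγ replicate 2, at adjusted p of 0.0524 to 0.183. Scd2 (chr19:44293674-44306864) places the double bond of monounsaturated fatty acids. With IFNγ the Scd2 libraries gave 1244 and 1252 CPM with sgRNA1 and 1313 and 1293 CPM with sgRNA2, against 1362 and 1359.7 CPM in Rosa26 cells. In vehicle it had 1499 and 1497 CPM with sgRNA1 and 1589 and 1641 CPM with sgRNA2, against 1931 and 1947 CPM in Rosa26 cells. Unlike Fasn and Elovl6, the highest libraries were Rosa26 in vehicle, and no 2 of the 6 groups overlapped. Scd2 fell with IFNγ in Cop1-guide cells (log2 -0.29 ± 0.017, adjusted p = 1.12e-18) and further in Rosa26 cells (log2 -0.51 ± 0.023, adjusted p = 4.08e-22), a difference of 0.22 ± 0.029 (adjusted p = 3.59e-07).

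Scd1 has the same activity as Scd2. With IFNγ, Scd1 stood at 100.4 and 105 CPM with sgRNA1 and 93.8 and 97.6 CPM with sgRNA2, against 117 and 117 CPM in Rosa26 cells. Vehicle libraries held 102 and 109.6 CPM with sgRNA1 and 109 and 106 CPM with sgRNA2, against 135 and 144 CPM in Rosa26 cells. Cop1-guide libraries were below Rosa26 libraries under each treatment, with a log2 difference of -0.24 ± 0.040 with IFNγ (adjusted p = 3.08e-06) and of -0.39 ± 0.038 in vehicle (adjusted p = 5.43e-11). Its IFNγ response was -0.10 ± 0.033 in Cop1-guide cells (adjusted p = 0.0109; lost without Cop1_sgRNA1 vehicle replicate 2, Cop1_sgRNA1 IFNγ replicate 1 or Cop1_sgRNA2 IFNγ replicate 1, at adjusted p of 0.0642 to 0.0773) and -0.25 ± 0.045 in Rosa26 cells (adjusted p = 1.64e-05). Fads1 and Fads2 desaturate polyunsaturated fatty acids. Under IFNγ Fads1 measured 105 and 99.9 CPM with sgRNA1 and 107 and 108 CPM with sgRNA2, against 109 and 118 CPM in Rosa26 cells. Its vehicle levels were 104 and 109 CPM with sgRNA1 and 105 and 113 CPM with sgRNA2, against 129.9 and 129 CPM in Rosa26 cells. Fads1 was lower in Cop1-guide cells with IFNγ (log2 -0.11 ± 0.040, adjusted p = 0.0208) and in vehicle (log2 -0.26 ± 0.040, adjusted p = 7.86e-07). The call with IFNγ was lost under DESeq2's Wald test, at an adjusted p of 0.0669, and without Rosa26 IFNγ replicate 2, Cop1_sgRNA1 IFNγ replicate 2 or Cop1_sgRNA2 IFNγ replicate 1, at adjusted p of 0.0529 to 0.416. Fads1 fell with IFNγ in Rosa26 cells (log2 -0.19 ± 0.046, adjusted p = 0.00129; lost without Rosa26 IFNγ replicate 1, at an adjusted p of 0.0771), and its response in Cop1-guide cells was -0.038 ± 0.033 (adjusted p = 0.403). Fads2 ranged from 221 to 273 CPM, fell with IFNγ in Cop1-guide cells (log2 -0.080 ± 0.024, lost without Cop1_sgRNA1 IFNγ replicate 2, at an adjusted p of 0.0632) and in Rosa26 cells (log2 -0.21 ± 0.034), and its difference of responses of 0.13 ± 0.041 was not called (adjusted p = 0.0568), but was called without Cop1_sgRNA2 vehicle replicate 1 (adjusted p = 0.0446) or Cop1_sgRNA1 IFNγ replicate 2 (adjusted p = 0.0498).

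**Figure D2:**
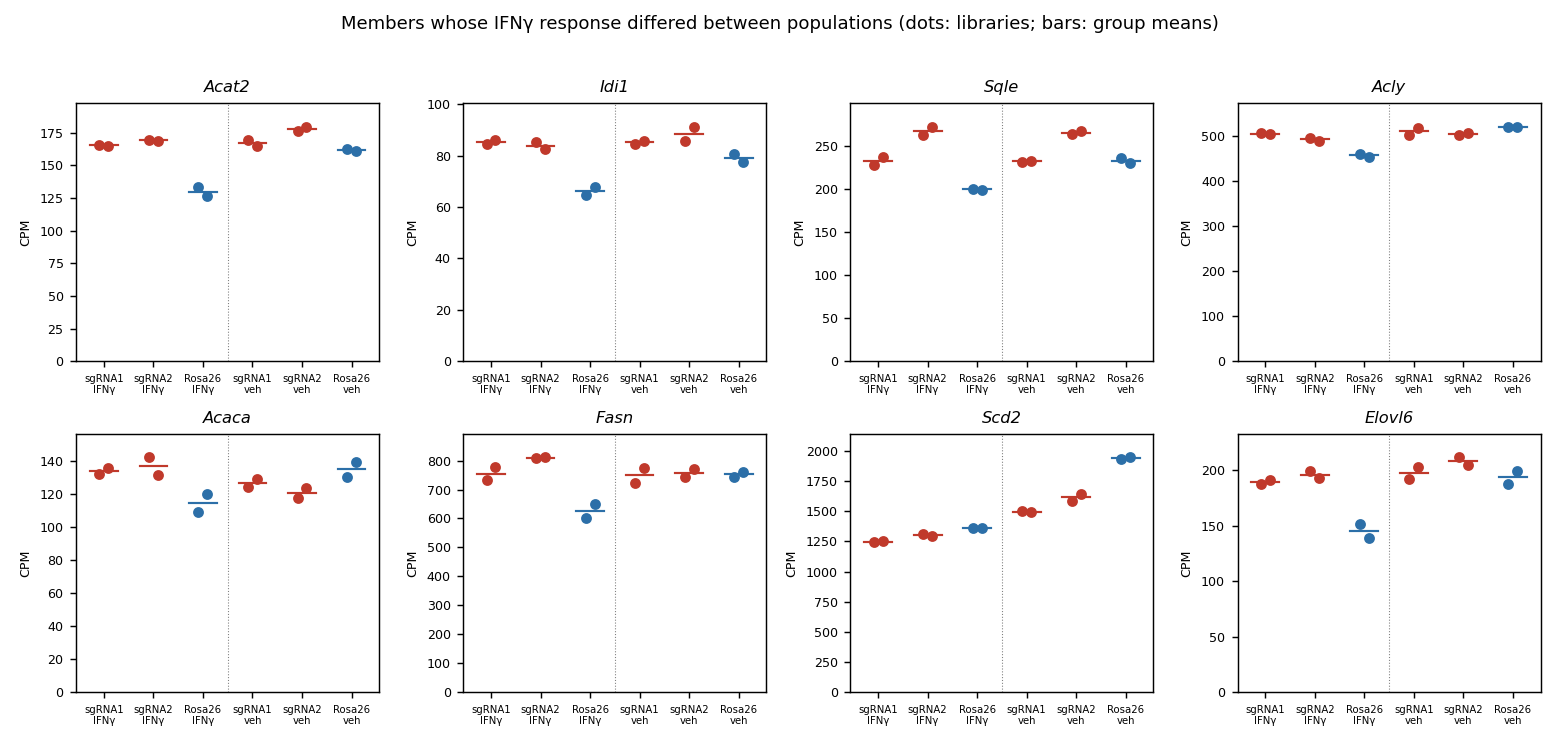
CPM (y axes, from 0) of the 8 members whose IFNγ response differed between Cop1-guide and Rosa26 cells, by group (x axes, IFNγ left of the dotted line and vehicle right of it), with dots for libraries and bars for group means. For Acat2, Idi1, Sqle, Acly, Fasn and Elovl6 both Rosa26 libraries with IFNγ are the lowest of the 12, while Scd2 is highest in Rosa26 cells in vehicle.

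In the mevalonate segment, Acat2 and Idi1 had different responses in Cop1-guide and Rosa26 cells. Acat2 encodes the cytosolic thiolase that joins acetyl-CoA units (chr17:12942890-12960747). Acat2 had, with IFNγ, 166 and 165 CPM with sgRNA1 and 169.9 and 169 CPM with sgRNA2, against 133 and 127 CPM in Rosa26 cells. In vehicle Acat2 measured 169 and 165 CPM with sgRNA1 and 176 and 179.7 CPM with sgRNA2, against 162 and 161 CPM in Rosa26 cells. The Rosa26 pair with IFNγ was below all others by more than the spread within any group. Acat2 changed with IFNγ by -0.045 ± 0.026 in Cop1-guide cells (adjusted p = 0.19) and fell in Rosa26 cells (log2 -0.31 ± 0.038, adjusted p = 4.76e-09), a difference of 0.27 ± 0.046 (adjusted p = 8.38e-05). Idi1 isomerises isopentenyl diphosphate, the building block of sterols and other isoprenoids (chr13:8885501-8892451). With IFNγ the Idi1 libraries gave 84.4 and 86.1 CPM with sgRNA1 and 85.3 and 82.5 CPM with sgRNA2, against 64.6 and 67.7 CPM in Rosa26 cells. Without IFNγ, Idi1 stood at 84.5 and 85.8 CPM with sgRNA1 and 85.6 and 91.2 CPM with sgRNA2, against 80.5 and 77.3 CPM in Rosa26 cells. Again the Rosa26 libraries with IFNγ alone were low. The difference of responses was 0.22 ± 0.062 (adjusted p = 0.0274), a call that was lost under DESeq2's Wald test, at an adjusted p of 0.0615, and without any 1 of 7 libraries, at adjusted p of 0.0523 to 0.201, that is, of all but Cop1_sgRNA1 vehicle replicate 2, Cop1_sgRNA2 vehicle replicate 2, Rosa26 IFNγ replicate 2, Cop1_sgRNA1 IFNγ replicate 1 and Cop1_sgRNA2 IFNγ replicate 2.

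Hmgcs1, HMG-CoA synthase, makes the precursor of mevalonate (chr13:119690379-119708260). With IFNγ, Hmgcs1 stood at 142 and 147 CPM with sgRNA1 and 161 and 164 CPM with sgRNA2, against 126 and 121 CPM in Rosa26 cells. In vehicle its levels were 142 and 140.3 CPM with sgRNA1 and 172 and 182 CPM with sgRNA2, against 135 and 148 CPM in Rosa26 cells. Levels were higher with sgRNA2 than with sgRNA1 under both treatments, and the Rosa26 pair with IFNγ was lowest. Hmgcs1 fell with IFNγ in Rosa26 cells (log2 -0.19 ± 0.042, adjusted p = 0.000369), a call lost without Rosa26 vehicle replicate 2, at an adjusted p of 0.0586, and its response in Cop1-guide cells was -0.049 ± 0.029 (adjusted p = 0.202). The difference of 0.14 ± 0.052 was not called (adjusted p = 0.0999, 95% interval 0.039 to 0.25), but was called without Rosa26 vehicle replicate 1 (adjusted p = 0.0269). Pmvk, the phosphomevalonate kinase, was lower in Cop1-guide cells. Under IFNγ Pmvk measured 51.2 and 47.4 CPM with sgRNA1 and 42.1 and 44.3 CPM with sgRNA2, against 55.9 and 53.0 CPM in Rosa26 cells. In vehicle it had 43.8 and 43.3 CPM with sgRNA1 and 44.7 and 46.5 CPM with sgRNA2, against 52.2 and 48.8 CPM in Rosa26 cells. Under each treatment its Cop1-guide libraries lay below the Rosa26 libraries. Pmvk was lower with IFNγ (log2 -0.24 ± 0.054, adjusted p = 0.000403) and in vehicle (log2 -0.18 ± 0.055, adjusted p = 0.00809; lost without Rosa26 vehicle replicate 1, at an adjusted p of 0.188). No IFNγ response of Pmvk was called averaged over the guides or in Rosa26 cells. With sgRNA1 its libraries with IFNγ lay above those in vehicle. Mvd, mevalonate diphosphate decarboxylase, was highest with sgRNA2 in vehicle. Mvd had, with IFNγ, 53.8 and 50.9 CPM with sgRNA1 and 51.9 and 51.6 CPM with sgRNA2, against 48.1 and 46.6 CPM in Rosa26 cells. Vehicle libraries held 48.6 and 45.2 CPM with sgRNA1 and 56.3 and 60.9 CPM with sgRNA2, against 52.3 and 50.4 CPM in Rosa26 cells. Its sgRNA2 and sgRNA1 libraries overlapped with IFNγ. Mvk, mevalonate kinase, ranged from 54.0 to 67.4 CPM with no call averaged over the guides or in Rosa26 cells, and Fdps, farnesyl diphosphate synthase, from 5.65 to 8.44 CPM, with a 95% interval of -0.46 to 0.34 for the difference of responses.

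Among squalene and sterol enzymes, Sqle, the squalene epoxidase and a rate-limiting step (chr15:59315077-59331192), had a called difference of responses. It was the only 1 of 10 called in the main fit, where 8 differences were above 0 and 2 below. That of Fdft1 (0.14, adjusted p = 0.113) was called without Rosa26 IFNγ replicate 1 (adjusted p = 0.0433). Those of Nsdhl (0.16, adjusted p = 0.175) and Hsd17b7 (0.17, adjusted p = 0.187) were not called. With IFNγ the Sqle libraries gave 227 and 237 CPM with sgRNA1 and 262 and 272 CPM with sgRNA2, against 200.2 and 198 CPM in Rosa26 cells. Its vehicle levels were 231 and 233 CPM with sgRNA1 and 263 and 267 CPM with sgRNA2, against 236 and 229 CPM in Rosa26 cells. With each guide the treatments lay close together, while the Rosa26 pair with IFNγ was the lowest. Sqle changed with IFNγ by 0.0050 ± 0.024 in Cop1-guide cells (adjusted p = 0.897) and fell in Rosa26 cells (log2 -0.22 ± 0.034, adjusted p = 8.71e-07), a difference of 0.23 ± 0.041 (adjusted p = 0.000224). Dhcr7, which makes cholesterol from its dehydro precursor, fell with IFNγ in Cop1-guide and Rosa26 cells. With IFNγ, Dhcr7 stood at 57.9 and 57.2 CPM with sgRNA1 and 52.7 and 51.7 CPM with sgRNA2, against 53.4 and 53.4 CPM in Rosa26 cells. In vehicle Dhcr7 measured 68.1 and 68.5 CPM with sgRNA1 and 69.1 and 64.6 CPM with sgRNA2, against 67.5 and 64.6 CPM in Rosa26 cells. No library with IFNγ reached any in vehicle. Dhcr7 fell in Cop1-guide cells (log2 -0.30 ± 0.039, adjusted p = 3.45e-08) and in Rosa26 cells (log2 -0.31 ± 0.056, adjusted p = 2.25e-05), with a difference of 0.0073 ± 0.068 (95% interval -0.13 to 0.15). Sc5d, which acts just before Dhcr7, rose instead. Under IFNγ Sc5d measured 143 and 144 CPM with sgRNA1 and 148 and 143 CPM with sgRNA2, against 152 and 152 CPM in Rosa26 cells. Without IFNγ, Sc5d stood at 124 and 124 CPM with sgRNA1 and 128 and 129 CPM with sgRNA2, against 139 and 137 CPM in Rosa26 cells. Every library with IFNγ exceeded every library in vehicle. Sc5d rose by 0.20 ± 0.027 in Cop1-guide cells (adjusted p = 1.35e-07) and by 0.14 ± 0.038 in Rosa26 cells (adjusted p = 0.00352).

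Fdft1, squalene synthase, fell with IFNγ in Rosa26 cells (log2 -0.15 ± 0.044, adjusted p = 0.00554; lost without Rosa26 vehicle replicate 1 or Rosa26 IFNγ replicate 2, at adjusted p of 0.0873 to 0.218) and was higher in Cop1-guide cells with IFNγ (log2 0.26 ± 0.038, adjusted p = 3.66e-07). Nsdhl, a sterol dehydrogenase, fell in Rosa26 cells (log2 -0.14 ± 0.056, adjusted p = 0.0483), a call lost in 5 of the 6 other fits and lost without any 1 of 9 libraries, at adjusted p of 0.0534 to 0.39, that is, of all but Cop1_sgRNA2 vehicle replicate 1, Cop1_sgRNA2 vehicle replicate 2 and Rosa26 IFNγ replicate 1, and was higher in Cop1-guide cells with IFNγ (log2 0.27 ± 0.049, adjusted p = 1.88e-05). Hsd17b7, the sterol ketone reductase, was also higher in Cop1-guide cells with IFNγ (log2 0.19 ± 0.053, adjusted p = 0.00324), a call lost without Rosa26 IFNγ replicate 1, at an adjusted p of 0.08. Ebp, the sterol isomerase, was lower in Cop1-guide cells in vehicle. Ebp had, with IFNγ, 35.3 and 35.8 CPM with sgRNA1 and 34.5 and 37.4 CPM with sgRNA2, against 37.2 and 37.2 CPM in Rosa26 cells. In vehicle its levels were 36.1 and 31.6 CPM with sgRNA1 and 34.6 and 34.1 CPM with sgRNA2, against 38.9 and 37.2 CPM in Rosa26 cells. In vehicle the Cop1-guide libraries were below both Rosa26 libraries, but the sgRNA1 libraries lay further from each other than the nearest of them lay from Rosa26. The call (log2 -0.15 ± 0.062, adjusted p = 0.0498) was lost in all 6 other fits and lost without any 1 of 11 libraries, at adjusted p of 0.0519 to 0.311, that is, of all but Cop1_sgRNA1 vehicle replicate 1. Lanosterol synthase Lss and the enzymes Cyp51 and Msmo1 had no IFNγ response called in Cop1-guide cells averaged over the guides or in Rosa26 cells. Stard4, which carries sterol between membranes, ranged from 84.0 to 98.6 CPM. With IFNγ the Stard4 libraries gave 89.5 and 84.0 CPM with sgRNA1 and 85.4 and 90.5 CPM with sgRNA2, against 90.8 and 88.8 CPM in Rosa26 cells. In vehicle it had 89.9 and 91.8 CPM with sgRNA1 and 91.9 and 98.6 CPM with sgRNA2, against 92.0 and 95.6 CPM in Rosa26 cells. Within each population the Stard4 libraries with IFNγ lay below those in vehicle, while across populations they overlapped. It fell with IFNγ in Cop1-guide cells (log2 -0.091 ± 0.035, adjusted p = 0.0418), a call lost under DESeq2's Wald test, at an adjusted p of 0.0953, and in a fit of only the groups compared, at an adjusted p of 0.0553, and without Cop1_sgRNA1 vehicle replicate 1 or 2, Cop1_sgRNA2 vehicle replicate 2, Cop1_sgRNA1 IFNγ replicate 2 or Cop1_sgRNA2 IFNγ replicate 1, at adjusted p of 0.0579 to 0.212, and its response in Rosa26 cells was -0.063 ± 0.050 (adjusted p = 0.361).

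Of the regulators, Srebf1 and Insig1 fell with IFNγ in Cop1-guide and Rosa26 cells. With IFNγ, Srebf1 stood at 134 and 139 CPM with sgRNA1 and 132 and 133 CPM with sgRNA2, against 140.4 and 146 CPM in Rosa26 cells. Vehicle libraries held 154 and 149.8 CPM with sgRNA1 and 144 and 148 CPM with sgRNA2, against 159 and 156 CPM in Rosa26 cells. Libraries with IFNγ lay below those of the same population in vehicle. Srebf1 fell by 0.15 ± 0.028 in Cop1-guide cells (adjusted p = 2.1e-05) and by 0.14 ± 0.039 on the log2 scale in Rosa26 cells (adjusted p = 0.00524; lost without Rosa26 vehicle replicate 1 or Rosa26 IFNγ replicate 1, at adjusted p of 0.0638 to 0.0959), and the difference of responses was -0.015 ± 0.048 (95% interval -0.11 to 0.081). Insig1 is itself a target of SREBP. Under IFNγ Insig1 measured 135 and 132 CPM with sgRNA1 and 136 and 138 CPM with sgRNA2, against 141 and 127 CPM in Rosa26 cells. Its vehicle levels were 154 and 146 CPM with sgRNA1 and 160.1 and 158 CPM with sgRNA2, against 157 and 157 CPM in Rosa26 cells. Every library with IFNγ was below every library in vehicle. Insig1 fell in Cop1-guide cells (log2 -0.19 ± 0.030, adjusted p = 8.71e-07) and in Rosa26 cells (log2 -0.23 ± 0.042, adjusted p = 2.37e-05), with a difference of 0.036 ± 0.051 (95% interval -0.068 to 0.14). Insig2 encodes the other retention protein. Insig2 had, with IFNγ, 62.5 and 65.3 CPM with sgRNA1 and 61.5 and 57.7 CPM with sgRNA2, against 67.3 and 63.3 CPM in Rosa26 cells. In vehicle Insig2 measured 68.6 and 65.8 CPM with sgRNA1 and 64.5 and 70.4 CPM with sgRNA2, against 67.7 and 68.0 CPM in Rosa26 cells. Here too, libraries with IFNγ lay below those of the same population in vehicle, while across populations they overlapped. Insig2 fell in Cop1-guide cells (log2 -0.13 ± 0.040, adjusted p = 0.012), a call lost without Cop1_sgRNA1 vehicle replicate 1, Cop1_sgRNA2 vehicle replicate 2, Cop1_sgRNA1 IFNγ replicate 1 or Cop1_sgRNA2 IFNγ replicate 2, at adjusted p of 0.0555 to 0.103, and its response in Rosa26 cells was -0.055 ± 0.057 (adjusted p = 0.498).

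Srebf2 had no IFNγ response called in Cop1-guide or Rosa26 cells. With IFNγ the Srebf2 libraries gave 247 and 243 CPM with sgRNA1 and 257 and 259 CPM with sgRNA2, against 259 and 258 CPM in Rosa26 cells. Without IFNγ, Srebf2 stood at 232 and 236 CPM with sgRNA1 and 253 and 252 CPM with sgRNA2, against 269 and 266 CPM in Rosa26 cells. In vehicle both Cop1 guides were below Rosa26 (log2 -0.14 ± 0.027, adjusted p = 5.15e-05), while with IFNγ the change was -0.040 ± 0.027 (adjusted p = 0.247). Scap encodes the SREBP escort. With IFNγ, Scap stood at 86.7 and 90.9 CPM with sgRNA1 and 96.1 and 93.3 CPM with sgRNA2, against 88.7 and 85.8 CPM in Rosa26 cells. In vehicle its levels were 89.3 and 87.6 CPM with sgRNA1 and 105 and 100.1 CPM with sgRNA2, against 97.2 and 91.3 CPM in Rosa26 cells. The sgRNA2 libraries in vehicle were the highest. Against Rosa26 cells, Scap had no call averaged over the guides (0.072 with IFNγ and 0.017 in vehicle).

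Set against Rosa26 cells under the same treatment, Cop1-guide cells with IFNγ had higher Elovl6, Fasn and early sterol enzymes such as Acat2 and Idi1, and under both treatments they had lower Scd1, Scd2 and Fads1. With IFNγ 13 members were higher and 6 lower, where calls covered 40.6% of all 11904 genes tested (19.8% higher and 20.7% lower). In vehicle 5 members were higher and 10 lower, where calls covered 35.8% of all 11904 genes tested (16.6% higher and 19.2% lower). The share of members called lower in vehicle, 30.3%, thus stood above the share of all genes called lower, and the share called higher, 15.2%, close to that of all genes. In the sterol branch, 8 of 17 were higher and 1 lower with IFNγ (median 0.14), and 5 higher and 3 lower in vehicle (median 0.032). In the fatty acid branch, 5 of 10 were higher and 4 lower with IFNγ (median 0.039), and 0 higher and 6 lower in vehicle (median -0.15). The comparisons with IFNγ and in vehicle use different Rosa26 libraries, while those of each guide share them. The comparison with IFNγ, the Rosa26 response and the difference of responses share the Rosa26 libraries with IFNγ, so that they are not independent.

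Among the members higher in Cop1-guide than in Rosa26 cells with IFNγ, the largest differences were those of Elovl6 (log2 0.41 ± 0.035, adjusted p = 9.27e-13), Acat2 (log2 0.36 ± 0.033, adjusted p = 3.27e-12) and Idi1 (log2 0.35 ± 0.045, adjusted p = 1.78e-08). Sqle (log2 0.32 ± 0.030, adjusted p = 5.78e-12), Fasn (log2 0.32 ± 0.031, adjusted p = 4.1e-09) and Hmgcs1 (log2 0.31 ± 0.037, adjusted p = 4.99e-09) followed. Acss2 (log2 0.28 ± 0.086, adjusted p = 0.0085; lost without Rosa26 IFNγ replicate 1 or Cop1_sgRNA2 IFNγ replicate 2, at adjusted p of 0.0636 to 0.158), Acaca (log2 0.24 ± 0.041, adjusted p = 4.91e-06), Acly (log2 0.12 ± 0.024, adjusted p = 5.35e-05) and Mvd (log2 0.14 ± 0.054, adjusted p = 0.039; lost under DESeq2's Wald test, at an adjusted p of 0.0967, and without Rosa26 IFNγ replicate 1 or 2, Cop1_sgRNA1 IFNγ replicate 1 or Cop1_sgRNA2 IFNγ replicate 1 or 2, at adjusted p of 0.0721 to 0.231) were also higher. The lower members with IFNγ, beside Scd1, Pmvk, Me1 and Fads1 above, were Scd2 (log2 -0.094 ± 0.020, adjusted p = 0.000208) and Srebf1 (log2 -0.091 ± 0.034, adjusted p = 0.0294; lost under DESeq2's Wald test, at an adjusted p of 0.0804, and without Rosa26 IFNγ replicate 2, Cop1_sgRNA1 IFNγ replicate 1 or Cop1_sgRNA2 IFNγ replicate 1, at adjusted p of 0.0596 to 0.299). In vehicle the lower members included Scd2 (log2 -0.32 ± 0.020, adjusted p = 8.57e-17), Fads2 (log2 -0.18 ± 0.029, adjusted p = 4.05e-06), Sc5d (log2 -0.13 ± 0.033, adjusted p = 0.00203) and Acaca (log2 -0.13 ± 0.040, adjusted p = 0.0119; lost under DESeq2's Wald test, at an adjusted p of 0.0561, and without Rosa26 vehicle replicate 2, at an adjusted p of 0.315). The higher ones in vehicle were Hmgcs1 (log2 0.17 ± 0.036, adjusted p = 0.00031), Idi1 (log2 0.14 ± 0.044, adjusted p = 0.0119), Fdft1 (log2 0.12 ± 0.038, adjusted p = 0.0118), Acat2 (log2 0.10 ± 0.032, adjusted p = 0.0166) and Sqle (log2 0.093 ± 0.029, adjusted p = 0.0105). These calls average the guides. Taken alone in vehicle, sgRNA1 had 0 of 33 members called higher than Rosa26 and sgRNA2 had 12. Of all genes, 15.8% were called higher with sgRNA1 and 13.5% with sgRNA2. The sgRNA1 vehicle libraries of Hmgcs1 and Sqle lay between the Rosa26 libraries, and those of Idi1, Fdft1 and Acat2 above them. The call of Hmgcs1 was lost without Rosa26 vehicle replicate 1, at an adjusted p of 0.0905, that of Idi1 lost without Rosa26 vehicle replicate 2 or Cop1_sgRNA2 vehicle replicate 2, at adjusted p of 0.053 to 0.166, that of Fdft1 lost without Rosa26 vehicle replicate 2 or Cop1_sgRNA2 vehicle replicate 2, at adjusted p of 0.055 to 0.169, that of Acat2 lost without Rosa26 vehicle replicate 1 or 2 or Cop1_sgRNA1 vehicle replicate 1, at adjusted p of 0.0537 to 0.123 and that of Sqle lost without Rosa26 vehicle replicate 2, at an adjusted p of 0.168. Without Rosa26 vehicle replicate 2 the count of members called in vehicle was 9 in place of 15. With libraries summed by population, 7 members were called with IFNγ (Acat2, Idi1, Fdft1, Acaca, Fasn, Scd1 and Elovl6), where calls covered 11.5% of all 12595 genes in that fit, and 3 in vehicle (Scd1, Scd2 and Fads1), where calls covered 7.16%.

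**Figure D3:**
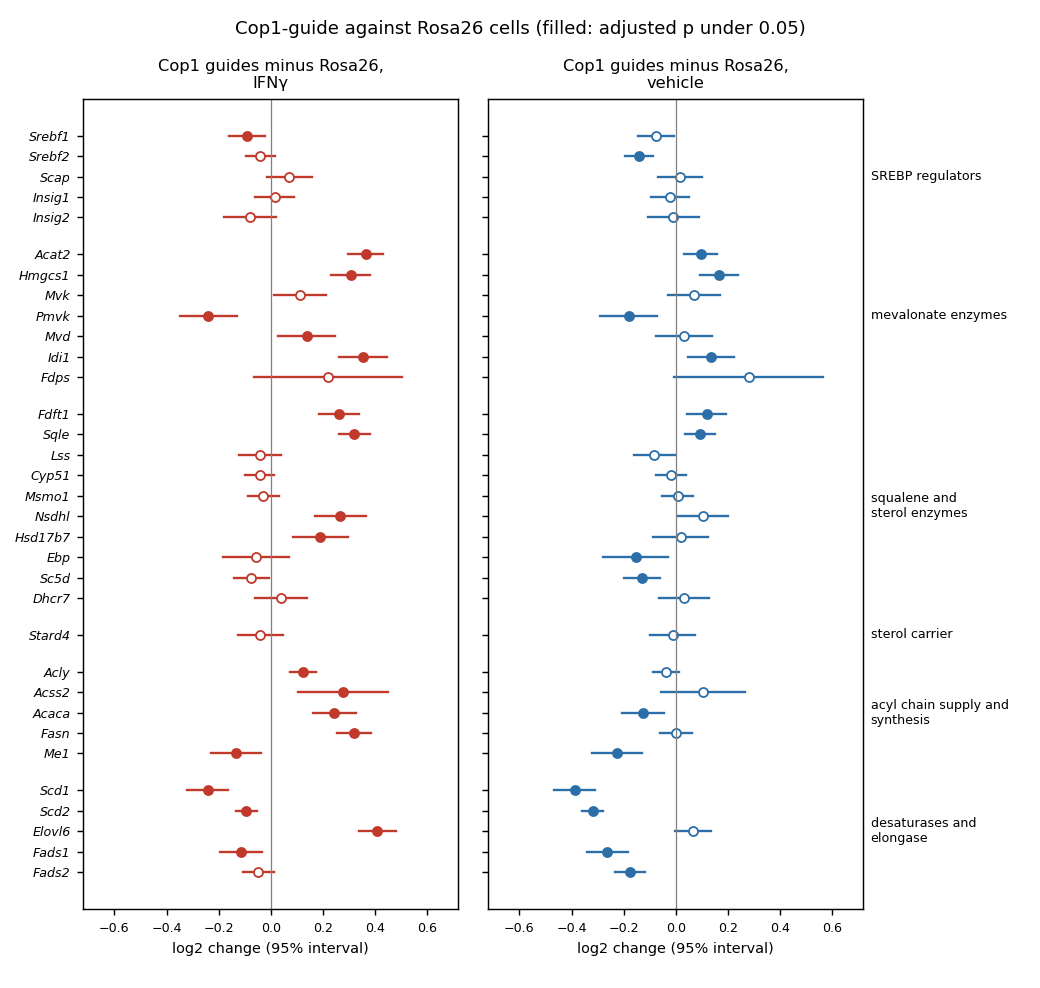
Log2 change with its 95% interval (x axes) of each of the 33 members (y axis) in Cop1-guide against Rosa26 cells, with IFNγ (left) and in vehicle (right). Filled points have an adjusted p under 0.05, and Elovl6 at 0.41 is the highest filled point on the left and Scd1 at -0.39 the lowest on the right.

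The Cop1 guides differed from each other in the sterol branch. Against Rosa26 with IFNγ, sgRNA2 cells had 11 members higher and 5 lower, where calls covered 32.9% of all 11904 genes tested (16.6% higher and 16.2% lower), and sgRNA1 cells 13 higher and 7 lower, where calls covered 38.2% of all 11904 genes tested (18.9% higher and 19.3% lower). In vehicle, sgRNA2 cells had 12 higher and 9 lower, where calls covered 29.2% of all 11904 genes tested (13.5% higher and 15.7% lower), and sgRNA1 cells 0 higher and 11 lower, where calls covered 33.4% of all 11904 genes tested (15.8% higher and 17.5% lower). Of the 17 sterol enzymes in vehicle, 10 were higher and 1 lower with sgRNA2 (median 0.13), and 0 higher and 5 lower with sgRNA1 (median -0.0039). These comparisons share the Rosa26 libraries. Tested directly, sgRNA2 cells were higher than sgRNA1 cells with IFNγ for 5 members and lower for 0, where calls covered 9.41% of all 11904 genes tested (5.07% higher and 4.33% lower). In vehicle 9 members were higher and 0 lower, where calls covered 5.99% of all 11904 genes tested (2.58% higher and 3.41% lower). Without Cop1_sgRNA1 IFNγ replicate 1 the count with IFNγ was 1 and without Cop1_sgRNA2 IFNγ replicate 2 it was 2, while the count in vehicle stayed within 1.5 times.

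Cyp51, the lanosterol demethylase, and Msmo1, which removes the next methyl groups, differed from Rosa26 in opposite directions under the guides in vehicle. With IFNγ Cyp51 had 261 and 267 CPM with sgRNA2 and 238 and 242 CPM with sgRNA1, against 264 and 254 CPM in Rosa26 cells. In vehicle it had 271 and 271 CPM with sgRNA2 and 228 and 223 CPM with sgRNA1, against 249 and 251 CPM in Rosa26 cells. In vehicle the sgRNA2 libraries were above and the sgRNA1 libraries below Rosa26, without overlap. Each guide's difference from Rosa26 was called, 0.11 ± 0.032 with sgRNA2 and -0.15 ± 0.032 with sgRNA1, so that the average over the guides was -0.018. Msmo1 with IFNγ had 272 and 289 CPM with sgRNA2 and 262 and 258 CPM with sgRNA1, against 281 and 269 CPM in Rosa26 cells. Its vehicle libraries held 294 and 302 CPM with sgRNA2 and 254 and 252 CPM with sgRNA1, against 277 and 269 CPM in Rosa26 cells. Its pattern in vehicle was the same, with called differences from Rosa26 of 0.13 ± 0.034 with sgRNA2 and -0.11 ± 0.034 with sgRNA1. Between the guides, Cyp51 differed by 0.14 ± 0.033 with IFNγ (adjusted p = 0.0041) and 0.26 ± 0.032 in vehicle (adjusted p = 1.86e-07). Msmo1 differed by 0.11 ± 0.034 with IFNγ (adjusted p = 0.0315) and 0.24 ± 0.034 in vehicle (adjusted p = 3.55e-06). With IFNγ the call of Cyp51 was lost without Cop1_sgRNA1 IFNγ replicate 1 or Cop1_sgRNA2 IFNγ replicate 2, at adjusted p of 0.0754 to 0.0857 and that of Msmo1 lost under DESeq2's Wald test, at an adjusted p of 0.0569, and without Cop1_sgRNA1 IFNγ replicate 1 or 2 or Cop1_sgRNA2 IFNγ replicate 2, at adjusted p of 0.113 to 0.413.

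Hmgcs1 was higher with sgRNA2 than with sgRNA1 by 0.17 ± 0.042 with IFNγ (adjusted p = 0.00541; lost without Cop1_sgRNA1 IFNγ replicate 1 or Cop1_sgRNA2 IFNγ replicate 2, at adjusted p of 0.0578 to 0.112) and 0.33 ± 0.041 in vehicle (adjusted p = 3.26e-07). Sqle was higher by 0.20 ± 0.033 with IFNγ (adjusted p = 5.52e-05) and 0.19 ± 0.033 in vehicle (adjusted p = 9.28e-05). Lss, which closes the sterol ring system, had with IFNγ 114 and 110.2 CPM with sgRNA2 and 101 and 98.5 CPM with sgRNA1, against 109 and 109 CPM in Rosa26 cells. In vehicle Lss measured 116 and 108 CPM with sgRNA2 and 98.7 and 101 CPM with sgRNA1, against 112 and 112 CPM in Rosa26 cells. The sgRNA1 libraries were the lowest under each treatment. The guides differed by 0.17 ± 0.045 with IFNγ (adjusted p = 0.0125) and 0.17 ± 0.045 in vehicle (adjusted p = 0.0179). The call with IFNγ was lost without Cop1_sgRNA1 IFNγ replicate 1 or 2 or Cop1_sgRNA2 IFNγ replicate 1, at adjusted p of 0.0557 to 0.177, and that in vehicle lost under DESeq2's Wald test, at an adjusted p of 0.0509, and in a fit of only the groups compared, at an adjusted p of 0.0644, and without Cop1_sgRNA1 vehicle replicate 1 or 2 or Cop1_sgRNA2 vehicle replicate 1, at adjusted p of 0.0526 to 0.309. In vehicle, sgRNA2 was also higher for Mvd (log2 0.32 ± 0.061, adjusted p = 0.00042), Scap (log2 0.22 ± 0.048, adjusted p = 0.00286), Srebf2 (log2 0.11 ± 0.032, adjusted p = 0.0265) and Scd2 (log2 0.11 ± 0.023, adjusted p = 0.00183), of which the call of Srebf2 was lost in a fit of only the groups compared, at an adjusted p of 0.0939, and without Cop1_sgRNA1 vehicle replicate 1 or 2 or Cop1_sgRNA2 vehicle replicate 1 or 2, at adjusted p of 0.0698 to 0.231 and that of Scap lost without Cop1_sgRNA2 vehicle replicate 1, at an adjusted p of 0.0768. Whether the guide difference itself changed with IFNγ was not tested. In the IFNγ response of each guide, of 17 sterol enzymes, 1 rose and 5 fell in sgRNA2 cells (median -0.072), where calls covered 25.3% of all 11904 genes tested (14.2% higher and 11% lower). In sgRNA1 cells 3 rose and 1 fell (median 0.038), where calls covered 22.5% of all 11904 genes tested (12.5% higher and 9.98% lower).

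**Figure D4:**
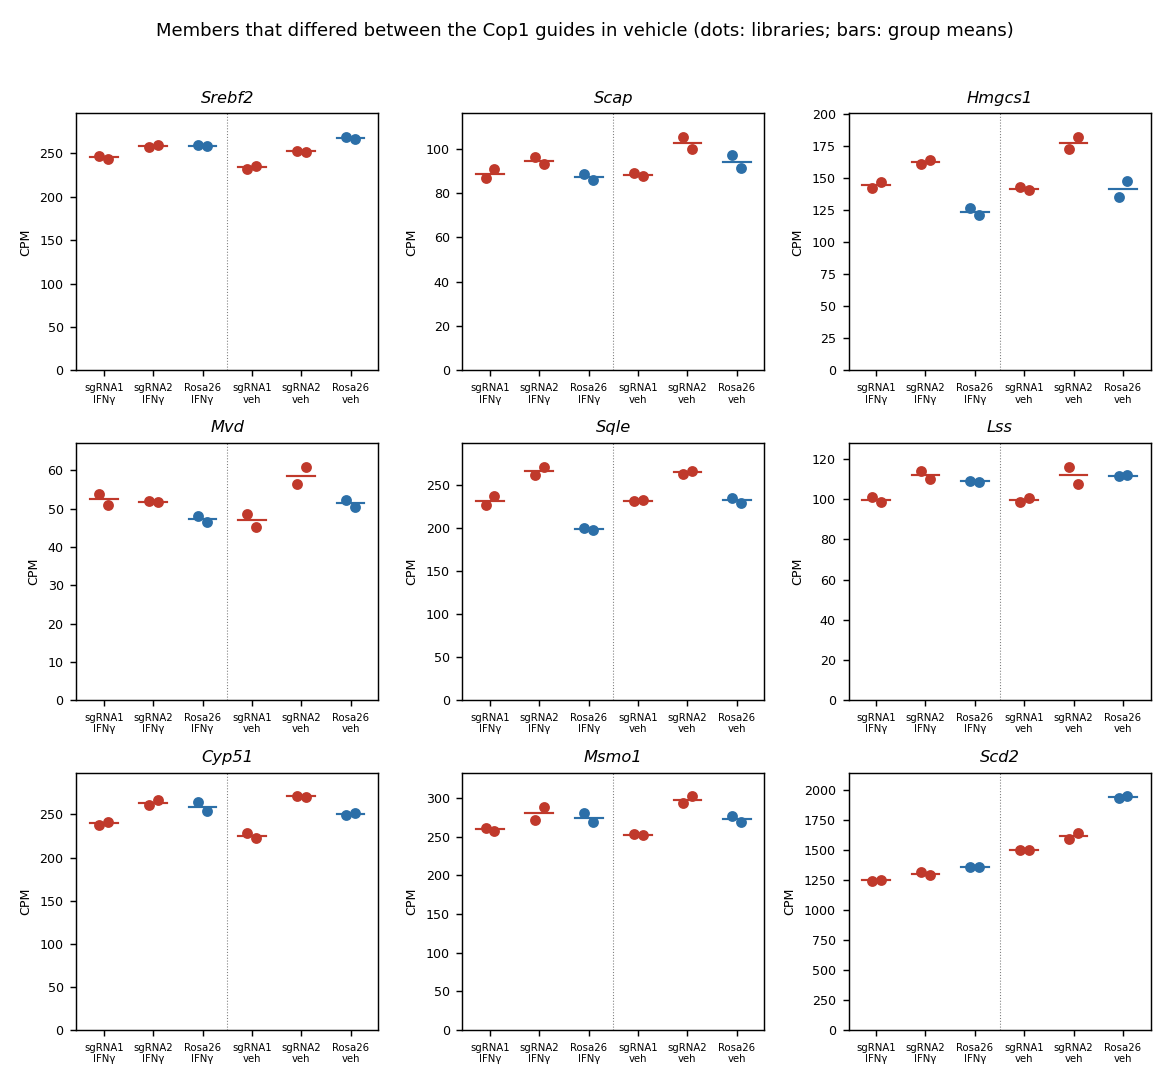
CPM (y axes, from 0) of the 9 members that differed between the Cop1 guides in vehicle, by group (x axes, IFNγ left of the dotted line and vehicle right of it), with dots for libraries and bars for group means. For Cyp51 and Msmo1 in vehicle the Rosa26 libraries lie below those of sgRNA2 and above those of sgRNA1.

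Genes of the same pathways outside the 33 members were counted by list. Over all 11904 genes tested, 19.8% were higher and 20.7% lower in Cop1-guide than in Rosa26 cells with IFNγ, and 16.6% higher and 19.2% lower in vehicle. With IFNγ against vehicle, 18.1% rose and 16.1% fell in Cop1-guide cells, against 16.6% risen and 16.2% fallen in Rosa26 cells, and 3.38% had a positive difference of responses. The list counts are to be read against these shares. Against Rosa26 cells with IFNγ, Cop1-guide cells had 4 of 7 genes of SREBP processing and sterol-sensing degradation higher and 1 lower, 2 of 6 LXR and efflux genes higher, 3 of 4 tested genes of sterol ester and lysosomal handling lower, and 5 of 11 further fatty acid genes higher. In vehicle, 4 genes of SREBP processing were higher, 2 LXR and efflux genes were higher and 2 lower, 2 ester and lysosomal genes were lower, and 1 further fatty acid gene was higher. Of 7 genes of SREBP processing and sterol-sensing degradation, 2 rose and 4 fell with IFNγ in Cop1-guide cells, against 2 risen and 3 fallen in Rosa26 cells, and 3 had a positive difference of responses. Mbtps1, the protease that makes the first cut in SREBP, fell with IFNγ by 0.15 ± 0.023 in Cop1-guide cells (adjusted p = 9.08e-07) and by 0.40 ± 0.033 on the log2 scale in Rosa26 cells (adjusted p = 3.13e-13). Its difference of responses was 0.25 ± 0.041 (adjusted p = 5.76e-05). Rnf145, a ubiquitin ligase of the endoplasmic reticulum, stood with IFNγ at 207 and 211 CPM with sgRNA1 and 199 and 191 CPM with sgRNA2, against 126 and 118 CPM in Rosa26 cells, and in vehicle at 238 and 234 CPM with sgRNA1 and 204 and 207 CPM with sgRNA2, against 155 and 157 CPM in Rosa26 cells. It was higher in Cop1-guide cells by 0.73 ± 0.033 with IFNγ (adjusted p = 1.42e-21) and 0.49 ± 0.032 in vehicle (adjusted p = 1.71e-16), with a difference of responses of 0.23 ± 0.045 (adjusted p = 0.000521). Rnf139, another such ligase, rose with IFNγ in Cop1-guide cells (0.57 ± 0.041) and in Rosa26 cells (0.65 ± 0.058). Erlin2 was higher in Cop1-guide cells with IFNγ (0.13 ± 0.035) and in vehicle (0.14 ± 0.035). Among further isoprenoid and sterol enzymes, Lbr, a sterol reductase of the inner nuclear membrane, had a positive difference of responses (0.16 ± 0.043, adjusted p = 0.02). Acat1, the mitochondrial thiolase, fell in Cop1-guide cells (-0.19 ± 0.036) and in Rosa26 cells (-0.31 ± 0.052). Tm7sf2, a sterol reductase, was lower in Cop1-guide cells with IFNγ (-0.51 ± 0.11) and in vehicle (-0.41 ± 0.10).

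Of 6 genes of LXR signalling and sterol efflux, 1 rose and 1 fell with IFNγ in Cop1-guide cells, against 1 risen and 0 fallen in Rosa26 cells. Nr1h2, which encodes LXRβ, rose in Cop1-guide cells (0.30 ± 0.045) and in Rosa26 cells (0.29 ± 0.067), and was higher in Cop1-guide cells with IFNγ (0.26 ± 0.056) and in vehicle (0.25 ± 0.058). Abca1, the efflux pump, was called lower in Cop1-guide cells in vehicle (-2.21 ± 0.62) at no more than 0.915 CPM in any library. Abcg1, another sterol transporter, was higher in Cop1-guide cells with IFNγ (0.58 ± 0.18) and in vehicle (0.50 ± 0.18). Over both treatments Abcg1 had 4.75 to 6.83 CPM with sgRNA1 and 3.57 to 3.95 with sgRNA2, against 2.99 to 3.46 in Rosa26 cells. Mylip, a ubiquitin ligase induced by LXR, fell with IFNγ in Cop1-guide cells (-0.37 ± 0.13). Of 4 tested genes of sterol ester and lysosomal handling, 3 rose in Cop1-guide and 2 in Rosa26 cells with IFNγ. Soat1, which esterifies cholesterol, rose in Cop1-guide cells (0.31 ± 0.029) and in Rosa26 cells (0.38 ± 0.040), as did Npc2, which moves sterol out of lysosomes (0.28 ± 0.021 in Cop1-guide and 0.33 ± 0.029 in Rosa26 cells). Npc1, its partner, was lower in Cop1-guide cells with IFNγ (-0.36 ± 0.077) and in vehicle (-0.38 ± 0.079). Ch25h, which makes an oxysterol that restrains SREBP, had at most 0.181 CPM and was not tested. Of 11 tested genes of further fatty acid and glycerolipid metabolism, 2 rose and 4 fell with IFNγ in Cop1-guide cells, against 1 risen and 4 fallen in Rosa26 cells, and none had a called difference of responses, nor did any LXR or ester gene. Acsl4, an acyl-CoA synthetase for polyunsaturated fatty acids, fell in Cop1-guide cells (-0.31 ± 0.022) and in Rosa26 cells (-0.37 ± 0.031), and was higher in Cop1-guide cells with IFNγ (0.28 ± 0.027) and in vehicle (0.21 ± 0.027). Acsl1 rose with IFNγ in Cop1-guide cells (0.34 ± 0.056) and in Rosa26 cells (0.39 ± 0.079), and Elovl1, an elongase of very long chains, was higher in Cop1-guide cells with IFNγ (0.19 ± 0.054).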

How the data were processed

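The deposited table holds whole-number read counts per gene and library, not normalized by the authors, for 12 libraries of 4T1 cells. Total RNA libraries were made with an Illumina TruSeq kit, per the labels' protocols. The submitters' processing notes name STAR 2.4.0, HTSeq, DESeq2 1.10 and the build mm10, without their roles. How strand and multi-mapping reads were handled is not given in the sources used here. Groups were taken from the sample titles, because the treatment text in the labels names IFNγ for every sample.

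Of 22298 named rows, 5858 were empty throughout. The table's totals row entered neither the scaling nor any test, and in 1 library it exceeded the sum over genes by 360 counts. Libraries held 19378070 to 32609717 counts, and the members with the fewest counts were Fdps, with as few as 127 in a library, and Acss2, with as few as 366, for which counting noise is larger than for the others. The libraries of each group differed beyond sampling noise (chi-square over its degrees of freedom, 2.33 to 4.21) and were counted separately.

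Tests used edgeR 4.0.16 in R 4.3.3 with limma 3.58.1: filterByExpr with a minimum count of 10 and total of 15, TMM scaling, 1 mean for each of the 6 groups, the robust quasi-likelihood F test with 6 residual degrees of freedom, and Benjamini-Hochberg adjustment over 11904 genes. The common dispersion of 0.00103 is a coefficient of variation of 3.21%. Standard errors are the absolute log2 change divided by the root of F, and 95% intervals come from them; they cover the spread between these libraries only. Cop1-guide values average both guides. The test was tested on simulated data before use.

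All 33 members are described by role. Values per library are given for the 4 called members with the largest change in each branch and comparison, every called regulator and the sterol carrier, with other members added for context. From the other pathway lists, counts and the called genes with the smallest p were taken. The members and lists were chosen with earlier results of these data known. Of those lists, Osbp was not analysed here. Counts over the further isoprenoid and sterol enzymes are not reported here. Gene positions are from GENCODE vM21 on GRCm38, and promoters from RefSeq. Alternatives were DESeq2 size factors, no count filter, the DESeq2 1.42.0 Wald test, a replicate block, only the groups of the comparison, libraries of each population summed, and each library left out.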

Additional observations from a re-analysis of the deposited data

Results flagged for a closer look

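The IFNγ response differed between Cop1-guide and Rosa26 cells by a test of the difference itself (edgeR's interaction contrast, adjusted p under 0.05 over 11904 genes) for 8 members, and each is given as the log2 response in Cop1-guide cells minus that in Rosa26 cells. Acaca had the largest value, 0.37, followed by Elovl6 at 0.34 and Fasn at 0.32. Acat2 stood at 0.27, Sqle at 0.23, Scd2 at 0.22 and Idi1 at 0.22. Acly had the smallest, 0.16. With the libraries of each population summed, none of these 8 was called, and the lowest adjusted p of any member was 0.575 (edgeR, 2 residual degrees of freedom). Groups of 2 libraries are too small for a test of single libraries that stand apart.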

How the results depend on the processing

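With the 2 libraries of each population and treatment summed, members called fell to 7 of the main 19 for Cop1-guide against Rosa26 cells with IFNγ, 3 of 15 in vehicle, 4 of 12 for the IFNγ response in Cop1-guide cells, 3 of 19 in Rosa26 cells and 0 of 8 for the difference of responses. That fit has 2 residual degrees of freedom in place of 6, and 563 genes and 6 members had an unadjusted p under 0.05 for the difference. It could not be made for the guides against each other, nor could a fit on only the groups compared be made for the difference of responses. Leaving out each library in turn gave 9 to 15 members called for Cop1-guide against Rosa26 cells in vehicle (9 without Rosa26 vehicle replicate 2), 1 to 6 for sgRNA2 against sgRNA1 with IFNγ, a median difference of responses of 0.053 to 0.13 in the sterol branch and 0.14 to 0.21 in the fatty acid branch. Of the calls, 7 of 8 for the difference of responses, 13 of 19 and 7 of 15 against Rosa26 cells with IFNγ and in vehicle, and 7 of 12 and 14 of 19 for the IFNγ response in Cop1-guide and Rosa26 cells were kept whichever library was left out. Between the guides, 1 of 5 with IFNγ and 6 of 9 in vehicle were kept. Under DESeq2 size factors, no count filter, the DESeq2 Wald test, only the groups compared and the replicate block, every count stayed within 1.5 times, and no called member changed sign under any alternative run. The replicate block gave 19 and 14 members called against Rosa26 cells with IFNγ and in vehicle, 13 and 18 for the IFNγ response in Cop1-guide and Rosa26 cells, 9 for the difference of responses, and 7 and 9 for the guides with IFNγ and in vehicle. It added calls for Fads2 in the difference of responses (adjusted p = 0.0429), Fasn in the response of Cop1-guide cells (0.0204), and Fasn (0.012) and Pmvk (0.0496) between the guides with IFNγ, and ended those of Ebp in vehicle (0.05003) and Nsdhl in Rosa26 cells (0.05004). Libraries of the same number did not deviate together (correlations of -0.030 to 0.045 over 15 pairs of groups), so the numbers were not taken as a pairing. Low counts limit Fdps most among the members.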
